A study of Drosophila melanogaster with 8 samples.

Results

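The Dpn-GFP NanoDam list of the larval medulla held 3474 peaks on the chromosome arms 2L, 2R, 3L, 3R, 4 and X, out of 7756 peaks on these arms in both lists of the series. All of its peaks on these arms were taken. The second list, of Dam-Dpn in all neuroblasts (NBs, the neural stem cells of the fly), held 4282. The brains were from Drosophila melanogaster in the third larval instar. Dpn-GFP brains carried a GFP-tagged copy of dpn on a BAC, a large genomic fragment, so that the tagged protein was made under the control of dpn itself, and brains of the w1118 background lacked the tag. Both genotypes carried the NanoDam transgene TaDaM-traNLS-vhhGFP, tub-GAL80ts, a temperature-sensitive inhibitor of GAL4, and eyR16F10-GAL4, which the labels call ey-GAL4. Each genotype had 2 replicates of pooled brains. The authors averaged the replicates of Dpn-GFP over w1118 into 1 list, so each peak has 1 value, no replicate error can be given and no test over samples was possible. The driver limits the list as a picture of NBs, because the study describes its expression in medulla neurons as well as in NBs and few superficial NBs carried it in larvae.

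Deadpan (Dpn) is a basic helix-loop-helix (bHLH) repressor of the Hes type, made in NBs and known as a gene downstream of Notch. In the medulla, NBs arise from a neuroepithelium and pass through a series of temporal transcription factors (tTFs), each of which gives a different set of neurons. In NanoDam, a nanobody that binds GFP carries the bacterial methylase Dam to a tagged protein, and adenines in GATC sites near the protein become methylated. A peak is therefore a stretch of chromatin with more methylation in brains with Dpn-GFP than in brains without it, and it tells nothing about transcription of the genes beside it.

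Peaks lay within 1 kb of 3918 of 17684 annotated genes (22.2%) and of 3215 of 13922 protein-coding genes (23.1%). This distance is the study's own, and a gene with such a peak is called bound here. Most bound genes had a single peak (3117), 553 had 2 and 248 had at least 3, among them 71 with at least 5. Bound coding genes were longer than coding genes in general, with a median of 3571 bp against 2163 bp. The bound share of all coding genes was 11.9% up to 1 kb of length, 18.7% from 1 to 3 kb, 28.1% from 3 to 10 kb, 40.7% from 10 to 30 kb, 45.7% from 30 to 100 kb and 59% above that. For each class of genes below, the share in the length bin of its median member is therefore the closer background. These shares describe 1 averaged list of peaks, and no class was tested against another. Lists and members were chosen with earlier results of these data known, so the shares are not independent of these data.

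NB markers were bound, and so were markers of medulla neurons and glia in part. All 4 NB markers had a peak: dpn, wor, a Snail-family repressor, mira, which carries fate determinants into the smaller daughter cell, and ase, an achaete-scute relative of NBs. Of the medulla neuron markers ap and toy were bound, and bsh and vvl were not, while a longer list of medulla neuron fate genes had 13 of 16 bound, against 40.7% of coding genes in its length bin. Ets65A, Lim3 and svp were among them. Of the glial markers repo, nrv2 and Eaat1 were bound, and moody was not, and of 17 glial genes 9 were bound, against 28.1% in their length bin. Of the 3 muscle markers Mlc2, a myosin light chain gene, was bound, whereas Mhc and up had none, and in the muscle list 4 of 17 were bound, against 28.1%. The photoreceptor markers ninaE, norpA and chp had none, and in the photoreceptor list 4 of 17 were bound, against 28.1%. Binding next to a marker is no measure of its expression, so these counts do not show which cells gave the signal.

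**Figure D1:**
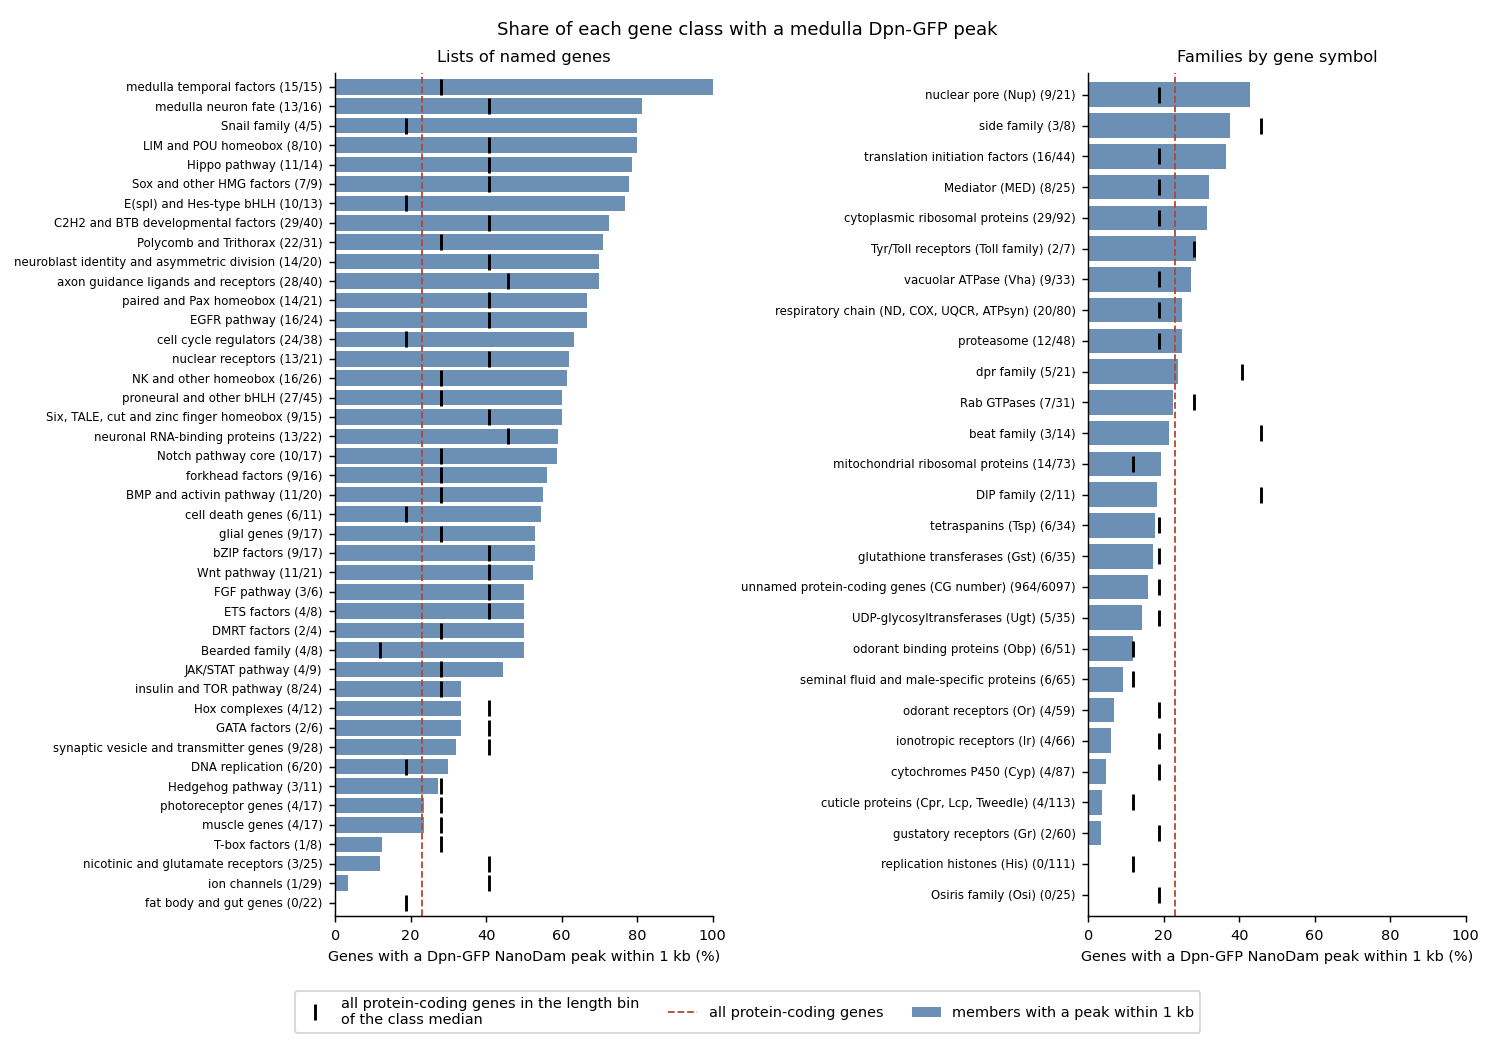
Share of each gene class with a Dpn-GFP NanoDam peak within 1 kb, in percent, with bound and matched members in brackets. Bars are the classes, ticks the share of all protein-coding genes in the length bin of the class median, and the dashed line the share of all protein-coding genes (23.1%). Temporal factors reach 100%, most classes of developmental regulators exceed their tick, and ion channels, chemoreceptors, cuticle proteins and gut genes lie far left of theirs.

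Over all lengths, the group called regulators here was bound most often of the 5 groups of classes, though not within each length bin. It holds the lists of transcription factors, and also those of NB identity and asymmetric division and of the Bearded family. Not every gene in these last 2 lists encodes a transcription factor, so the shares of regulators are not those of transcription factors alone. Of the 302 regulators listed, 183 (60.6%) had a peak, against 23.1% of all coding genes. The share was 47.4% among the 19 regulators of up to 1 kb and 58.9% among the 56 of 1 to 3 kb, where all coding genes had 11.9% and 18.7%. Among genes of 10 to 30 kb it was 62.1%, below genes of the cell machinery (85.7%, 12 of 14) and of signalling (83.3%, 30 of 36). Genes of the cell machinery, which here means the cell cycle, DNA replication, cell death and chromatin lists, had 58 of 100 (58%) with a median length of only 3354 bp, and signalling genes had 77 of 146 (52.7%). Neuronal genes, the longest group with a median of 24239.5 bp, had 54 of 144 (37.5%), below all coding genes in the bins up to 30 kb and slightly above them in longer ones. Genes of glia, muscle, photoreceptors, gut and fat body, called other cells, had 17 of 73 (23.3%). Of 70 classes with at least 4 coding members, 34 were bound at least 1.5 times as often as coding genes in general, 14 at most 0.67 times as often, and 42 exceeded the share of their length bin.

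**Figure D2:**
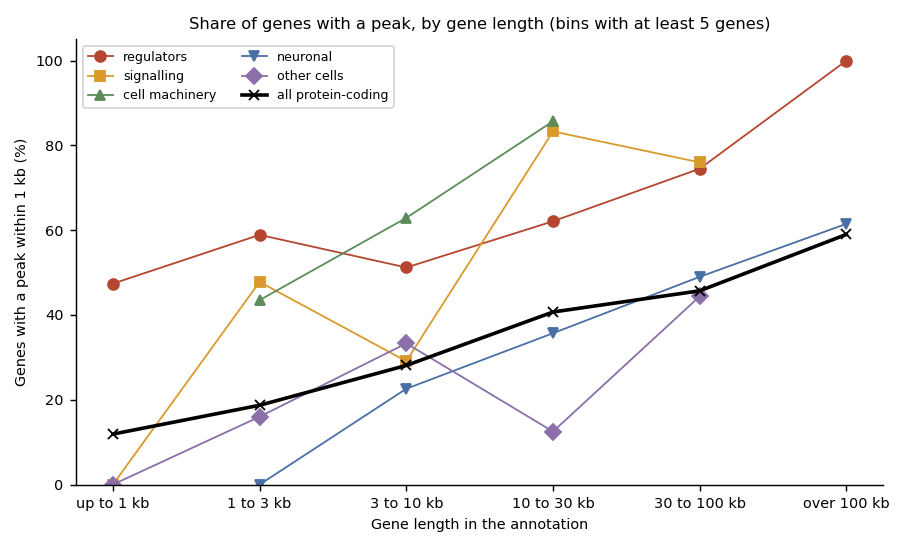
Share of genes with a peak within 1 kb, in percent, by annotated gene length, for 5 groups of gene classes and for all protein-coding genes, in bins of at least 5 genes. Regulators lie above all coding genes in every bin shown, and neuronal genes lie below them up to 30 kb and slightly above them from there on.

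All 15 listed tTFs of the medulla were bound, against 28.1% of coding genes in their length bin. With the higher-scoring 50% of peaks the share was 80%, against 9.19% of all coding genes. When at least 2 peaks were asked for, it was 66.7%, against 5.14%. Of the 15, 11 had a peak that belonged to a cluster of at least 5 peaks, against 3.05% of all coding genes. A cluster is a run of neighbours with gaps of at most 10 kb. ey, the Pax6 homologue, had 5 peaks with 5479 bp covered, and erm, a zinc finger gene, had 7 peaks with 11706 bp. opa, a zinc finger gene of the Zic family, had 6 peaks, and the NK-type homeobox gene scro had 4. At slp1, slp2, D, SoxN and dmrt99B only 1 or 2 peaks lay within 1 kb, yet their clusters held 17, 17, 14, 15 and 10 peaks. At hth, a TALE homeobox gene of 132008 bp, peaks were spread out, with 4 in the gene and no more than 2 in any cluster. The highest of them had a score of 11.7 and rank 42 of the list. B-H1, B-H2 and scro were the other tTFs outside clusters of at least 5. gcm, the switch gene for glia, had 2 peaks with 345 bp covered and a cluster of 7, and repo, a glial homeobox gene, had 1 peak in a cluster of 3.

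At slp1 and slp2, a pair of forkhead genes, the cluster ran on 2L from 3803072 to 3862932 and covered 25380 bp. The highest-scoring peak within 1 kb of slp1, at 3824947 to 3825657, had a score of 7.71, and 2 peaks farther away scored higher, with 11.05 at 3844307 to 3847565 and 9.73 at 3842275 to 3843828. The cluster has 12 genes, and 7 of its 17 peaks had no gene within 1 kb. The peak of 11.05 was not among those 7, so it also lay within 1 kb of another annotated gene. The score is the value the authors' peak caller gave the peak and ranks peaks within this list only. Peaks beyond 1 kb also scored higher at D, a SoxB gene on 3L. Its single peak within 1 kb had a score of 5.08. The highest score of the cluster, 11.83, lay at 14147701 to 14148143, 12599 bp from the nearest annotated gene. That gene was not D, which lay farther away, so distance does not assign this peak to D. The peaks at 14165787 to 14166709 and 14170647 to 14173110 had 10.9 and 10.56. Their nearest gene was D, at 8901 and 2500 bp. Of the 14 peaks at D, 12 had no gene within 1 kb. SoxN, a second SoxB gene, was the only gene within 1 kb of its 15 peaks, 14 of which lay beyond that distance from every gene, up to 37609 bp from SoxN. The peak beside SoxN scored 3.3, the lowest of the 15, and the others ran from 4.35 to 10.59. At ey, by contrast, the highest score of the cluster, 12.87, lay inside the gene at 699351 to 699823 on chromosome 4, and the 1 peak beyond 1 kb had 5.38. At tll, an orphan nuclear receptor gene, 2 of the 5 clustered peaks lay within 1 kb and the top score of the cluster had rank 209, compared with rank 1131 within 1 kb.

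**Figure D3:**
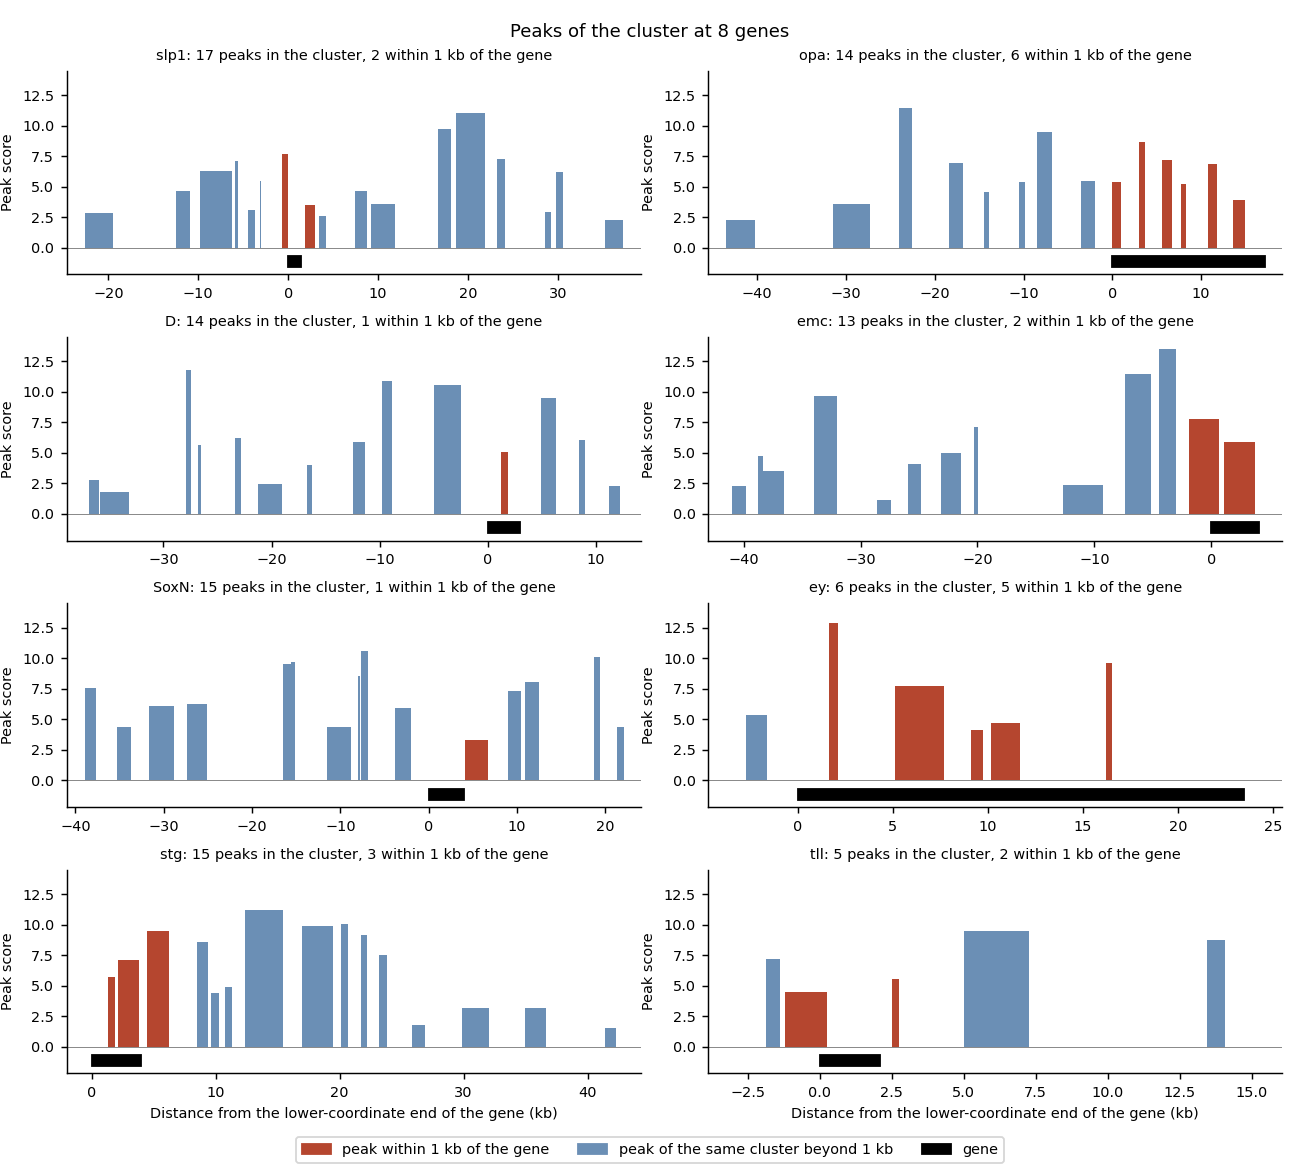
Peaks of the cluster at 8 genes, drawn by distance in kb from the lower-coordinate end of the gene (horizontal) and by peak score (vertical), with the width of a bar to scale. Peaks within 1 kb of the gene are red, others of the same cluster blue and the gene black. At slp1, D, SoxN and stg most peaks lie beyond 1 kb and hold the highest scores (11.05, 11.83, 10.59 and 11.16), whereas at ey the peak with 12.87 lies in the gene. The peak of 11.83 in the cluster at D lies nearer to another gene than to D.

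Genes of NB identity and asymmetric division were bound at 14 of 20 loci, against 40.7% of coding genes in their length bin, and the split followed their kinds. pros, which encodes the homeodomain protein that ends self-renewal in the daughter cell, had 11 peaks covering 17532 bp, all in 1 cluster on 3R. Its highest scores were 12.89 at 11350347 to 11352382, 11.64 and 10.99. numb, a Notch inhibitor inherited by 1 daughter cell, had 5 peaks, brat, a translational repressor, had 5 with 10936 bp, and mira had 3. wor had 2 peaks with a best rank of 28, and ase had 1. nerfin-1, which keeps neurons differentiated, had 2 with a best rank of 318, and the peak of rank 3, at mat, lay 6908 bp away in the same cluster. Syp and Imp, RNA-binding proteins of opposite gradients in NB ageing, had 6 each, as did grh, a factor of late NBs. All 6 unbound genes of the list encode proteins of cell polarity or spindle orientation, namely aPKC, dlg1, l(2)gl, par-6, pins and scrib. baz and insc, which act with them, had 2 peaks and 1.

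Genes of Notch signalling were bound at several levels of the pathway. N, the receptor, had 4 peaks with a best rank of 211. Of the ligand side, Delta had 3 peaks covering 5928 bp with a best rank of 95, Ser had 1 peak, neur, the ubiquitin ligase that starts ligand uptake, had 7 and fng, which adds sugars to the receptor, had 3. mam, a coactivator in the nucleus, had 4 peaks covering 10044 bp and kuz, a protease that cuts the receptor, had 1. Su(H), the DNA-binding protein of the pathway, gro and H, corepressors, and mib1 had none, nor had Nct, aph-1 and pen-2 of the gamma-secretase, whose catalytic subunit Psn had 1. In all, 10 of 17 core genes were bound, against 28.1% in their length bin.

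The E(spl) complex, a row of Notch target genes, held 15 peaks on 3R from 25995978 to 26040501 with 14904 bp covered. Each of its 7 bHLH genes and 4 Bearded-family genes had a peak within 1 kb, and neighbours can share one. The highest score, 13.4 with rank 11, lay at E(spl)mbeta-HLH (26005525 to 26006779), next came 12.83 at 25999191 to 26000061, within 1 kb of E(spl)mdelta-HLH and E(spl)mgamma-HLH, and then 12.54 at E(spl)m8-HLH (26039499 to 26040501), the other end of the row. Between them, scores were as low as 3.86 and 4.31. Bearded-family genes outside the complex were unbound, namely BobA, Brd, Ocho and Tom. Among Hes-type genes elsewhere, Hey had 1 peak and hry 1 with rank 3129, whereas Hesr, Sidpn and cwo had none.

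Peaks at dpn itself were among the strongest of the list. One peak lay within 1 kb of the gene, on 2R from 8232231 to 8233834, with a score of 13.48 and rank 9. It opened a cluster of 8 peaks reaching to 8257444, whose scores were 13.48, 10.17, 12.14, 7.45, 8.91, 15.22, 10.5 and 1.48 in order along the arm. The peak of 15.22, rank 2 of the list, lay at lncRNA:CR44446, more than 12 kb from dpn. Dpn-GFP brains carry the BAC copy of this locus and w1118 brains do not, and the part of the extra copy in these scores was not tested. Of the 8 peaks, 6 overlapped a peak of the list from all NBs, and the share of all peaks that did so is not given here. Such overlap does not measure what the extra copy adds to the scores.

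LIM and POU, Sox and HMG, C2H2 and BTB, nuclear receptor, paired and Pax, bHLH and Snail genes were each bound above the share of coding genes in their length bin, and differences between families were not tested. That share was 40.7% for these lists, except 28.1% for the bHLH genes and 18.7% for the Snail family. LIM and POU homeobox genes had 8 of 10 bound, with Lim3 at 5 peaks and pdm3 at 4, and nub and vvl unbound. Sox and other HMG genes had 7 of 9, with 5 peaks at pan, the TCF of the Wnt pathway, and 4 each at Sox21b and Sox102F. In the C2H2 and BTB list 29 of 40 were bound. There jing, a zinc finger gene, had 17 peaks covering 29774 bp, a number that among coding genes only Mur2B also reached, and br, a target of ecdysone, had 13, lola 6, ham 6 and chinmo, which marks early NBs, 4, while hb, Kr, salm and odd had none. Among the bHLH genes 27 of 45 were bound. tap and sim had 3 peaks each, and da, the common partner of proneural proteins, had 1 with rank 2181. l(1)sc had 2 peaks, whereas its neighbours ac and sc had none, nor had Myc. Nuclear receptors had 13 of 21 bound, with 7 peaks at Eip75B, 4 at EcR, which encodes the ecdysone receptor, and none at usp, its partner. Paired and Pax genes had 14 of 21, with 3 peaks each at Rx, toy and oc. In the Snail family 4 of 5 were bound.

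Hox, GATA and T-box genes, with few members each, were not bound above their length bins. Hox and GATA genes, each at 33.3%, lay above the 23.1% of all coding genes, and T-box genes lay below it at 12.5%. The Hox complexes had 4 of 12 genes bound, against 40.7% of coding genes in their length bin, each by 1 peak, at ftz (rank 1152), abd-A, Antp and bcd, the last 3 with ranks from 2282 to 3065, whereas Ubx, Abd-B, Scr, Dfd, lab and pb had none. GATA factors had 2 of 6, against 40.7%, with ranks 3075 at grn and 3445 at GATAd. Of 8 T-box genes only bi was bound, against 28.1% in their length bin, by 11 peaks covering 20083 bp. A cluster of 16 peaks on X from 4378406 to 4456861 held 9 of them, and bi, which acts in patterning downstream of Dpp, was the only coding gene within 1 kb of that cluster.

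In the signalling pathways, length bins had 40.7% of coding genes bound for the Hippo, EGFR and Wnt lists and 28.1% for the BMP, Hedgehog, insulin and JAK/STAT lists. Hippo genes had 11 of 14 bound, with sd, the TEAD factor, at 4 peaks, wts, the kinase, at 2 with a best rank of 55, and kibra at 3, while yki, the coactivator, mats and app had none. In the EGFR pathway 16 of 24 had a peak, among them 5 each at Raf, the kinase, and S, which helps ligand transport, 2 at Egfr and 1 at spi, the ligand, but none at Sos or drk, the adaptors. Of the Wnt genes 11 of 21 were bound. fz2, a receptor, had 7 peaks, Axn, of the destruction complex, 5, nkd, an inhibitor, 3 with a best rank of 45, and arm, the beta-catenin, 3, whereas wg, dsh and sgg had none. BMP genes had 11 of 20, including the receptors tkv and put, the nuclear factor shn and the inhibitor Dad, and none at the ligand dpp. Hedgehog genes had 3 of 11, near their background, at ci, ptc and rdx. In the insulin and TOR list 8 of 24 (33.3%) were bound, with 4 peaks at InR, the receptor, and none at Akt, S6k or chico. JAK/STAT genes had 4 of 9, with 4 peaks at Socs36E, a feedback inhibitor, and none at the ligands upd1, upd2 and upd3.

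Cell cycle regulators had 24 of 38 bound, against 18.7% of coding genes in their length bin. E2f1, which drives genes of S phase, had 9 peaks covering 15314 bp with a best rank of 31. CycE had 7 in 15626 bp of 2L, all inside the gene, with scores from 4.68 to 11.68. CycB3 had 2, with a best rank of 93, and dap, a CDK inhibitor, and CycA had 1 each. CycD had 2, with ranks of only 2197 and 3388 among the 3474 peaks. trbl, which slows entry into mitosis through stg, had 3. The cluster at stg, which encodes the Cdc25 phosphatase, had 15 peaks on 3R from 29253130 to 29294159. The 3 within 1 kb scored 5.73, 7.13 and 9.5, and 3 beyond scored above them all, with 11.16, 10.01 and 9.89. The farthest lay 37411 bp away. Kinases and cyclins of transcription, Cdk7, Cdk8, Cdk9, CycC, CycK and CycT, had none, though CycH had 2 peaks. DNA replication genes had 6 of 20, each with 1 peak, against 18.7% in their length bin. PCNA, Mcm5, geminin and all 6 listed Orc genes had none. In the cell death list, Diap1, the caspase inhibitor, had 2 peaks with a best rank of 106 and grim had 1, whereas hid, rpr and skl had none. Polycomb and Trithorax genes had 22 of 31 bound, against 28.1% in their length bin, with 4 peaks each at osa, fs(1)h and psq. ph-p had 2, one of them 5424 bp wide with rank 203. E(z), Pc and Psc had 1 each, and brm, mor, ash1, Sce and Scm had none.

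Among the neuronal lists, axon guidance and RNA-binding protein genes exceeded their length bins, and ion channel, receptor and synaptic vesicle genes did not. Axon guidance genes had 28 of 40 bound, against 45.7% in their length bin, with 7 peaks at sli, 5 at robo2 and 1 at robo1, its receptors, 4 at unc-5 and 3 at fra, netrin receptors, and 2 each at NetA and NetB. Neuronal RNA-binding proteins had 13 of 22, against 45.7% in their length bin, with pum at rank 5 and elav at 2 peaks. Ion channels, by contrast, had 1 of 29, against 40.7% in their length bin. The exception was Shal, a potassium channel gene, with 75 bp of 1 peak inside its window, and para, Sh, cac, slo and eag had none. Receptors for acetylcholine, glutamate and GABA had 3 of 25, against 40.7%, each with 1 peak, the highest of them at nAChRbeta1 with rank 1841. Synaptic vesicle and transmitter genes had 9 of 28 (32.1%), against 40.7% in their length bin and 23.1% of all coding genes. They had 3 peaks each at Gad1 and cpx, 2 each at ChAT and VAChT, which lie in 1 locus, and none at brp, Syt1 or Syx1A. Cell surface families were counted by symbol. dpr genes had 5 of 21 bound, against 40.7% in their length bin. DIP genes had 2 of 11, beat genes 3 of 14 and side genes 3 of 8, against 45.7%. The side share, 37.5%, was 1.62 times that of all coding genes.

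Gene families of other tissues were rarely bound. The 22 fat body and gut genes and the 25 Osiris genes had no peak, cuticle proteins had 4 of 113, cytochromes P450 4 of 87, odorant receptors 4 of 59, gustatory receptors 2 of 60 and ionotropic receptors 4 of 66. All of these but the cuticle proteins fell in length bins where 18.7% of coding genes were bound. The 111 replication histone genes had none, and they lie in tandem repeats whose mapping is not given in the sources used here. Ribosomal proteins were not among them. Cytoplasmic ribosomal proteins had 29 of 92 (31.5%), against 18.7% in their length bin, mostly with low-ranking peaks. RpL4 and RpS9 had ranks 174 and 302, RpL8 came next with rank 829, and RpS10a was lowest with rank 3454. Mitochondrial ribosomal proteins had 14 of 73 (19.2%), against 11.9%, and genes known only by a CG number 964 of 6097 (15.8%), against 18.7%.

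Peaks were not spread evenly along the arms. The median gap between neighbours was 9849.5 bp, with quartiles of 2959.5 and 36281.5 bp. With gaps of up to 10 kb joined, the list fell into 1733 clusters, of which 1012 were single peaks, 29.1% of the list. At the other end, 134 clusters had at least 5 peaks and together held 971 (28%), over spans from 9530 to 117073 bp with a median of 27931 bp, and a median of 35.6% of the span lay under peaks. There were 21 clusters of at least 10. The list of all NBs, which has more peaks, had 181 clusters of at least 5.

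Regulator genes were found more often at larger clusters. A listed regulator lay within 1 kb of a peak in 57.1% of clusters of at least 10 peaks (12 of 21), in 38.9% of those of 5 to 9 (44 of 113), in 11.8% of those of 2 to 4 and in 7.41% of single peaks. Larger clusters touch more genes of every kind, with medians of 7, 4, 3 and 2 genes in the same order. Counted by gene, 71 of 302 regulators (23.5%) lay at a cluster of at least 5, against 3.05% of all coding genes (424 of 13922). Signalling genes had 10.3%, the cell machinery 9%, neuronal genes 4.86% and genes of other cells 4.11%. In clusters of at least 10 peaks 31.1% of peaks had no gene within 1 kb, against 9.78% of single peaks.

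CenG1A and CG32816, with 11 peaks each, and kirre, an adhesion protein gene of 394149 bp with 10, were among the genes with most peaks, and mbl, an RNA-binding splicing factor gene, had 8 peaks covering 23678 bp. The cluster with the most peaks lay on X from 7224361 to 7341433, with 24 peaks over Cph, a zinc finger gene, CG1677, lncRNA:CR44357 and brk, the repressor of Dpp targets. These genes overlap or nest, so the 14 peaks of Cph and the 14 of CG1677 are in part the same. Other clusters of 13 or more lay at tara, a transcriptional coregulator (15 peaks on 3R from 16211197 to 16283942), at jing (14 on 2R from 6536543 to 6608589, all within 1 kb of the gene), at opa (14, 6 of them within 1 kb), at emc, an Id-type inhibitor of bHLH proteins (13 on 3L from 708375 to 753158, 2 of them within 1 kb) and at corto, a chromatin factor (13 on 3R from 5063562 to 5123077). corto was the only gene within 1 kb of its cluster, and 11 of the 13 peaks had no gene. A cluster of 16 on X from 15654410 to 15698467 lay among genes known only by number, CG8119, CG15646, CG12708, CG15599 and CG8128. Of the 6 clusters of 10, those with a listed regulator lay at lola and psq, neighbouring BTB genes, at neur and tgo, and at dmrt99B. The dmrt99B locus is crowded with 16 genes. The others, all on 3L, held no listed regulator. They lay at CG13898, at can and Or67d, and at CG3402, MED30 and Rev1. A cluster of 11 at CG7560 and CG6149 on 3L held none either. Of the 134 clusters of at least 5, 35 touched exactly 1 coding gene and 7 none. The largest of these 7 held 7 peaks, on 3R from 5016348 to 5046129.

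**Figure D4:**
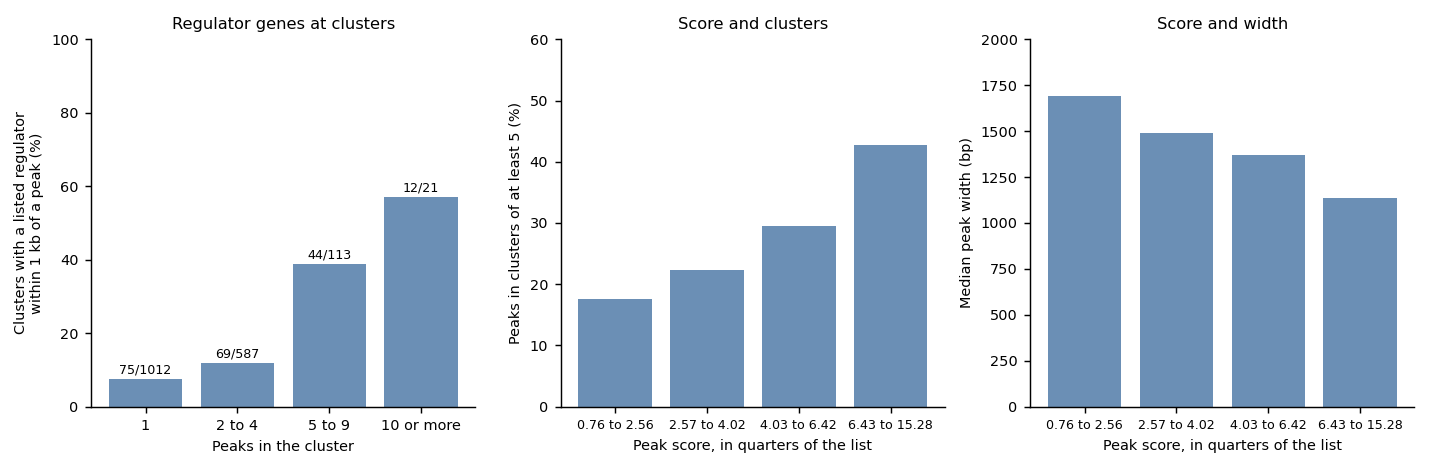
Left, percent of clusters with a listed regulator gene within 1 kb of a peak, by peaks in the cluster, with counts above the bars. Middle and right, percent of peaks in clusters of at least 5 and median peak width in bp, for 4 ranges of the peak score with about equal numbers of peaks. Regulators rise with cluster size to 57.1%, clustered peaks rise with score to 42.7%, and median width falls with score to 1135 bp.

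Width and score ran in opposite directions. Peaks were 178 to 10453 bp wide, with a median of 1419 and quartiles of 892 and 2123.5 bp, and scores ran from 0.76 to 15.28 with a median of 4.02. The median width was 1694 bp for scores of 0.76 to 2.56, 1489 bp for 2.57 to 4.02, 1372 bp for 4.03 to 6.42 and 1135 bp for 6.43 to 15.28. Across the 3474 peaks Spearman's rho of width and score was -0.215, given as a description of peaks from 1 profile that share the same libraries. Peaks in the highest of these ranges were also more clustered, with 42.7% in clusters of at least 5, against 17.5% in the lowest range. Fewer of them lay at genes, with 21.6% lacking a gene within 1 kb, against 9.64%. The widest peak of the list, 10453 bp at meigo and SNF4Agamma on 3R, had rank 3467. Other broad peaks lay at sbb, a zinc finger corepressor gene (8548 bp), at kis, a chromatin remodeller of the Trithorax group (7947 bp, rank 1600), at SKIP (7742 bp), at olf413 (7103 bp) and at tou (6846 bp). In all 31 peaks reached 5 kb and 284 (8.18%) were under 500 bp.

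Of the 100 peaks with the highest scores, 53 were in clusters of at least 5, against 28% of the whole list, 8 were single and 18 had no gene within 1 kb, against 14.2% of the whole list. The very top, on 3R from 30276150 to 30276382 with a score of 15.28 and a width of 233 bp, lay 1550 bp from the nearest gene. Ranks 3 to 9 included peaks at mat, sbb, pum, Ets65A, an ETS factor gene, and hng3, in the cluster of emc. A listed regulator lay within 1 kb of 23% of the first 100 peaks, of 13.5%, 17.8% and 10.9% in the 3 rank ranges that follow and of 9.05% of the last 1469 peaks, so the decline was not steady.

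Peaks away from genes were more often clustered than the list as a whole. No gene lay within 1 kb of 494 peaks (14.2%), which were a median of 3984 bp and up to 55640 bp from the nearest gene. Of these, 225 (45.5%) were in clusters of at least 5, against 28% of all peaks, and their median score was 5.29, against 4.02 in the whole list. SoxN, D, corto and stg had 14, 12, 11 and 9 such peaks in their clusters. The midpoint of 69.9% of all peaks fell inside a gene, and 1526 peaks (43.9%) were within 1 kb of at least 2 genes, so a bound gene is not always the nearest one.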

How the data were processed

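DamID libraries from larval brains were aligned by the authors with damidseq_pipeline at default options, and replicate profiles were averaged. Peaks were called with find_peaks (min-quant 0.8, unified peaks min, FDR below 0.01). The methods describe calling per replicate, whereas the list used here is of the averaged profile. Tool versions and the build of the alignment were not given in the sources used here. The deposited list gives arm, start, end, FDR and a score without stated scale, which serves to rank peaks within the list. Averaging hides differences between replicates. The list holds no reads, so depth is unknown and no interval is given.

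Genes came from the RefSeq table of Release 6. The list names no build, and its last peaks on the arms end near the last genes of that release. The table has no exons, strand or sequence, so peaks are placed only inside or beside genes, and no sequence is shown. A gene was assigned every peak within 1 kb of it, covered length is the length of peaks inside that window, and peaks with gaps of up to 10 kb made a cluster. Of 76 gene classes, 43 were lists of symbols and 33 families by symbol, and 2 of the 800 names listed were not matched and are not analysed here. Names shared by several genes as synonyms or since changed were assigned by hand. Members and lists were chosen with earlier results of these data known. Genes named were chosen from those at the 10 highest-scoring peaks, the 10 with most peaks and the 10 with most covered length, the genes of the 10 clusters with most peaks, up to 4 members of each class with the highest-scoring peaks, unbound members where at most 4, and genes the study shows. Others were named after their values were seen. Alternatives were a distance of 0 or 5 kb, the higher-scoring 50% of peaks, an FDR below 0.001, peaks closer than 500 bp joined, cluster gaps of 5 or 20 kb, coding genes only and at least 2 peaks per gene. The scripts were tested on simulated peaks. Python 3.11.15, numpy 2.4.6, pandas 2.3.3, scipy 1.17.1 and matplotlib 3.10.9 were used.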

Additional observations from a re-analysis of the deposited data

How the results depend on the processing

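The share of peaks with no gene, 14.2% at 1 kb, was 18.5% for the gene body only, 5.79% at 5 kb, 18.4% with the higher-scoring 50% of peaks, 15.5% with an FDR below 0.001 and 19.5% for coding genes only. Bound genes, 3918, were 6508 at 5 kb and 1618 with the higher-scoring 50%. Clusters of at least 5 peaks, 134, were 49 with the higher-scoring 50%, 89 with an FDR below 0.001 and 57 with gaps of at most 5 kb. Classes bound at most 0.67 times as often as coding genes, 14, were 32 when at least 2 peaks were asked for, a stricter count. Classes bound at least 1.5 times as often, 34, were 31 to 38 in all alternatives run. Of 70 classes, 3 crossed the share of all coding genes for the gene body only, 7 at 5 kb, 10 with the higher-scoring 50%, 7 with an FDR below 0.001 and 15 with at least 2 peaks, most of them classes within 1.5 times of that share. Of those beyond it, these crossed. With at least 2 peaks the Bearded family and the side family had 0% bound and the T-box genes 12.5%, above the 5.14% of all coding genes. With the higher-scoring 50% the T-box genes had 12.5% and the translation initiation factors 9.09%, against 9.19% of all coding genes, and with an FDR below 0.001 the side family had 12.5%, against 15.1%. Joining peaks closer than 500 bp moved no class across. The cause of these shifts was not tested beyond the fewer or more peaks and genes that each setting admits. No paired analysis was possible because the replicates are averaged in 1 list and no test was made, and for the same reason no replicate could be left out. The planned count of promoters with E-boxes or N-boxes was not run, since no sequence was used. Depth is unknown, so an unbound gene is one with no peak in the list and not one shown to lack Dpn.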

Other observations

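Noncoding genes of 5 kinds, each with a median length below 1 kb, were bound more often than coding genes of up to 1 kb. Of those coding genes 11.9% had a peak. The noncoding kinds were not split by length, and lncRNA genes include far longer ones. lncRNA and miRNA genes lay below the 23.1% of coding genes of all lengths. lncRNA genes had 380 of 1959 bound (19.4%), snoRNA genes 71 of 269 (26.4%), tRNA genes 73 of 290 (25.2%), snRNA genes 10 of 32 (31.2%) and miRNA genes 42 of 260 (16.2%), whereas pseudogenes had 18 of 245 (7.35%) and rRNA genes 0 of 98. Antisense RNA genes had 102 of 503 (20.3%), against 18.7% of coding genes of 1 to 3 kb. Many noncoding genes lie inside or beside coding genes and share their peaks. The genes with the most peaks of any kind were lncRNA:CR44357 with 28 and lncRNA:CR32773 with 26, 239347 and 223710 bp long and both on X, where they span coding genes that are bound too.

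The arms differed in density. Chromosome 4 had 46.4 peaks per Mb and 36 of its 80 coding genes bound (45%), X had 31.8 and 28.1%, and 2L, the lowest, had 22.5 and 18.2%. 2R, 3L and 3R lay between, with 24.5, 25.9 and 24.8 peaks per Mb. Among housekeeping families, nuclear pore genes had 9 of 21 bound and translation initiation factors 16 of 44, against 18.7% of coding genes in their length bin. eIF5B, which joins the ribosomal subunits, had 7 peaks covering 13816 bp.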
